A study of Homo sapiens with 12 samples.

Results

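The zinc finger genes described here lie on the long arm of human chromosome 19, in bands 19q13.1 to 19q13.3. A gene was taken as a member when its symbol in GENCODE 29 starts with ZNF and a digit and when it starts between 34 and 46 Mb of chromosome 19 (GRCh38). This gave 67 members of the 58735 genes in the count tables, and of 645 genes with such a symbol. Of the members, 60 are annotated as protein coding, 4 as antisense transcripts, 1 as a lincRNA and 2 as pseudogenes. RNA was sequenced from HAP1, a near-haploid human cell line whose label reads chronic myelogenous leukemia, and from a derivative of it labelled as SETDB1 KO. Wild type (WT) and SETDB1 KO cells, with no further treatment in the labels, were each taken through a non-directional and a directional library kit, with 3 biological replicates per genotype and kit. How the knockout was made, and whether it is a single clone, is not given in the sources used here.

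C2H2 zinc finger proteins bind DNA through tandem fingers, and most of those encoded in the chromosome 19 clusters carry an amino-terminal KRAB domain. KRAB recruits TRIM28, a scaffold that brings in the histone H3 lysine 9 methyltransferase SETDB1 with its partner ATF7IP, so that bound loci, often transposable elements, are silenced. The zinc finger genes are themselves a known site of this system. Their last exons, which encode the finger arrays, carry H3K9me3 that depends on SETDB1, ATRX and the zinc finger protein ZNF274 in several cell types. The comparison asked how members differed between SETDB1 KO and WT cells, with the non-directional libraries as the main data.

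SETDB1 itself was read 651, 543 and 519 times in the 3 WT libraries and 118, 106 and 118 times in the 3 knockout libraries. The groups did not overlap, and the log2 fold change was -2.39 ± 0.079 (SE, adjusted p = 7.03e-43, quasi-likelihood F-test of edgeR). Non-directional libraries held 8921959 to 10199215 gene counts and directional libraries 532021 to 676691. The haematopoietic markers PTPRC, SPI1, GATA1, MPO, CD33, CD34 and HBG1 had 0 to 2 counts in every non-directional library, so the defining markers of the labelled cell type were absent. KRT8, KRT18, VIM and CDH2, keratins and markers of adherent cells, were expressed. Of these, KRT8 rose in the knockout (log2 fold change 0.47 ± 0.045, adjusted p = 4.34e-15, edgeR) and CDH2 fell (-0.45 ± 0.041, adjusted p = 1.48e-16, edgeR), while KRT18 (-0.10) and VIM (-0.05) were not called. Their part in the members' changes was not tested. The knockout libraries differed from each other by less than the sampling noise (chi-square per degree of freedom 0.956 to 0.991 over all genes), no more than repeat sequencing of the same sample would give. The labels name them as biological replicates and they were entered as 3 samples, so p-values may be too small, and counts with them summed as 1 sample are given beside the main counts. WT replicate 2 stood apart from WT replicates 1 and 3 (1.82 and 2.00, against 1.03 between those 2).

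The members span 5 runs, split wherever the starts of neighbouring members lay over 1 Mb apart. Run 1 held 7 members from ZNF807 to ZNF792 (chr19:34542462-34964049), run 2 held 30 from ZNF565 to ZNF573 (chr19:36182060-37817300) and run 3 held 3 from ZNF546 to ZNF780A (chr19:39984134-40090938). Run 4 was the pair ZNF574 and ZNF526 (chr19:42068477-42228201), and run 5 held 25 members from ZNF575 to ZNF296 (chr19:43525497-45076588). Coding sequences of 60 members could be translated. They held 1 finger in ZNF428 to 29 in ZNF850, with a median of 13 by the pattern of paired cysteines and histidines. A narrow pattern for the KRAB A box was found in 27 of them, and in 2 members of run 5, so it marks a form of the box and not its presence or absence.

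Start regions of the members were rich in the dinucleotide CG, the site of DNA methylation in human cells. RefSeq (GRCh38.p14) gives a start for 58 members, and for 49 of these the start nearest to the GENCODE gene start lay within 1 kb of it. In the 250 bases before that start the median was 17 CG (range 5 to 30), against 11 over 35116 RefSeq start regions, and at least 10 CG were present in 91.8% of the members against 52.2% of all start regions. CG reads the same on both strands and its matches cannot overlap. Of these windows 4 are shown 5′ to 3′ on the strand of the gene, with CG in capitals. They were chosen because they hold no exon of a protein-coding gene and because they differ in CG number and in response: ZNF790-AS1 (17 CG, chr19:36797313-36797562, plus strand), the member with the largest fold change, ZNF792 (20 CG, chr19:34964230-34964479, minus strand), which rose, ZNF780B (10 CG, chr19:40056232-40056481, minus strand), which rose and holds an L1 element described further on, and ZNF574 (5 CG, chr19:42068227-42068476, plus strand), the member with the fewest CG, which was not called.
ZNF790-AS1: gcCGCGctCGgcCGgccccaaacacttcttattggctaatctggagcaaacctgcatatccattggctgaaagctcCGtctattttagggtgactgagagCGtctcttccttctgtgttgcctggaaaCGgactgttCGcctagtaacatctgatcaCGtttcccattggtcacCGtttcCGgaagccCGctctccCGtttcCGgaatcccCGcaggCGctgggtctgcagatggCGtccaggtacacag
ZNF792: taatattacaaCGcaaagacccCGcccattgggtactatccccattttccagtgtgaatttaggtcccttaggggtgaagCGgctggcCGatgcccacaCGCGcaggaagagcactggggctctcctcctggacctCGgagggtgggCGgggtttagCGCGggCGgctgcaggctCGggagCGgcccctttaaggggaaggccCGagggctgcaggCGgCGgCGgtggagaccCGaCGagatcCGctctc
ZNF780B: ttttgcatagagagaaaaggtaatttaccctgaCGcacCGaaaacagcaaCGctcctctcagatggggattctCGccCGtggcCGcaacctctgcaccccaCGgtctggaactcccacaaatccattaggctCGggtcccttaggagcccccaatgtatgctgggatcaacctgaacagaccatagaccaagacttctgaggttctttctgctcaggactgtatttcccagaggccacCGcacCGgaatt
ZNF574: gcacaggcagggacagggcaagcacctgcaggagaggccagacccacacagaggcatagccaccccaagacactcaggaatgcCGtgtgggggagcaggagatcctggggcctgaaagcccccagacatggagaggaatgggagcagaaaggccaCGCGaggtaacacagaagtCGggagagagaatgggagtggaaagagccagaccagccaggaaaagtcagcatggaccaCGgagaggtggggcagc

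Of the 67 members, 56 passed the filter on low counts in the non-directional libraries. Among these 33 rose in the knockout (58.9%, against 25.5% of all 13778 genes tested), 1 fell (1.79%, against 25.9% of all genes), and 22 passed no threshold. When the knockout libraries were added up and entered as 1 sample, 30 of the 33 were still called higher (21% of all genes), and the lower call was lost. The median log2 fold change of the tested members was 0.40, beside -0.0012 over all genes, and 49 of 56 lay above 0. Genes in the middle 80% of the members' range of level (2.97 to 37.3 CPM, counts per 1000000 gene counts of the library) gave 24.4% higher calls. The knockout libraries lay above every WT library in 36 of 56 members (29.1% of all genes) and below every WT library in 1 (27% of all genes). In these bulk libraries a change in the share of cells with a transcript cannot be told apart from a change in its amount per cell.

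Most of the changes were moderate. A log2 fold change of at least 1 was reached by 6 of the members called higher, where 3.61% of all genes rose by that much, 16 tested members lay between 0.5 and 1, and 12 of those called higher lay below 0.5. The standard error was 0.034 to 0.42 with a median of 0.12, and the median coefficient of variation between replicates was 10.1% in WT and 6.8% in knockout libraries. Summed over all 67 members, the level was 972, 931 and 981 CPM in the WT libraries and 1237, 1249 and 1223 CPM in the knockout libraries. The means, 961 ± 26.7 and 1236 ± 13.3 (SD, n = 3), differed 1.29-fold, and 1.36-fold without ZNF146, the most abundant member. The sum was higher in each knockout library than in any WT library. Of the 4 tested members with fewer than 10 counts in some WT library, which could pass the filter through the knockout, ZNF790-AS1 and ZNF404 were called. With 10 or more counts in every WT library 52 members remained, of which 31 were called higher and 1 lower.

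**Figure D1:**
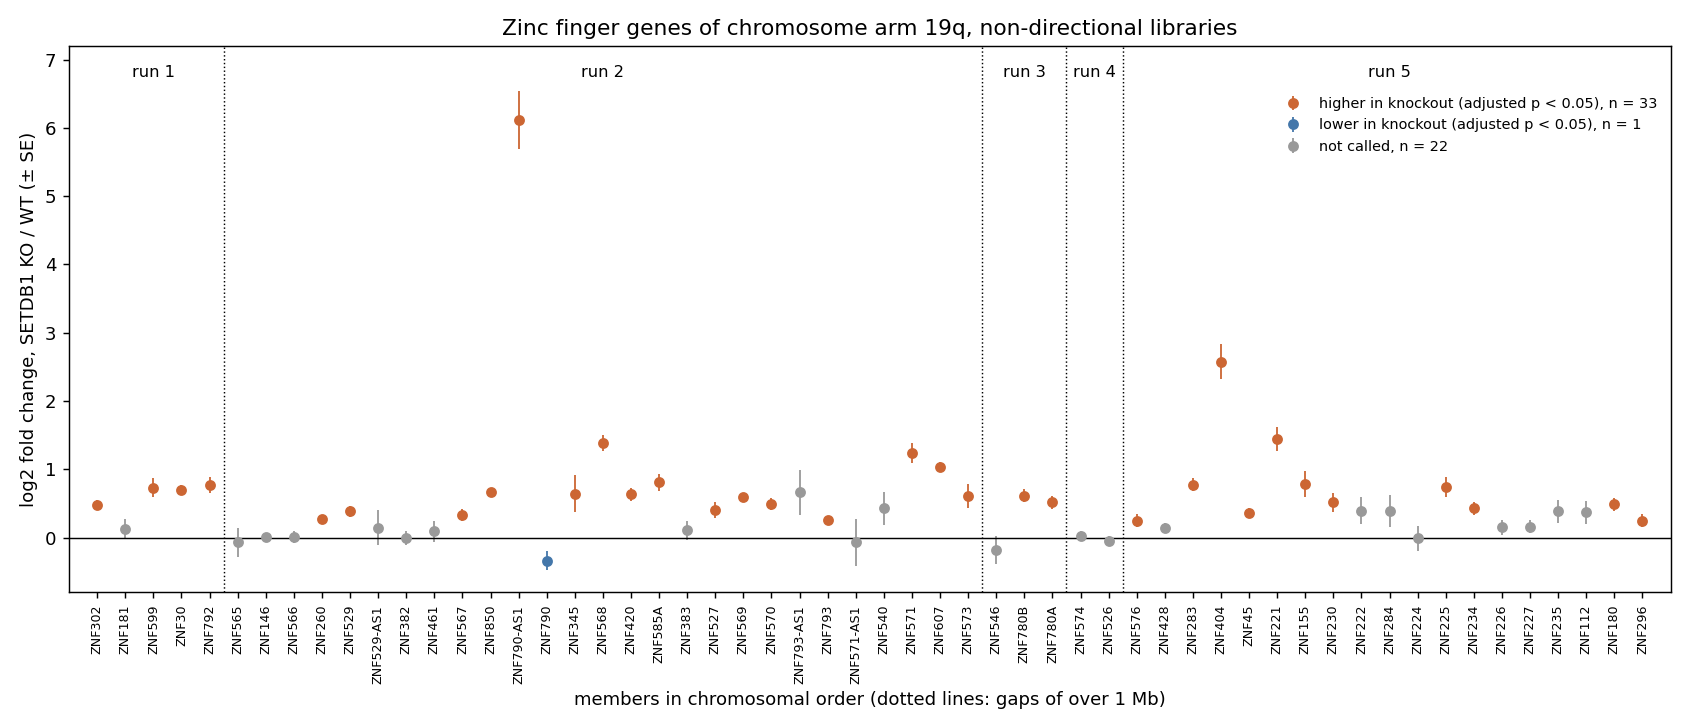
Log2 fold change (knockout over WT, non-directional kit, y axis, ± SE) of the 56 tested members in chromosomal order (x axis), with dotted lines at gaps of over 1 Mb. The 33 members called higher are spread over runs 1, 2, 3 and 5, ZNF790-AS1 stands at 6.12, and ZNF790 at -0.34 is the 1 member called lower.

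ZNF790-AS1 (chr19:36797518-36828115, plus strand), a non-coding transcript annotated opposite to ZNF790, changed from near absence to clear expression. It had 1, 0 and 1 counts in the WT libraries and 54, 54 and 64 in the knockout libraries. The 2 WT counts against 172 knockout counts give a ratio of 82.5 with an exact 95% interval of 22.5 to 687 for counting error alone, and the adjusted p was 1.85e-22 (edgeR). The fitted log2 fold change of 6.12 depends on the prior count at so low a WT level. ZNF790 (chr19:36817428-36850787, minus strand), a KRAB zinc finger gene, had 88, 75 and 67 counts in WT and 69, 63 and 59 in the knockout. Its log2 fold change was -0.34 ± 0.14 (adjusted p = 0.0426, edgeR), and the groups did not overlap after scaling by depth, although the gap between them was narrow. The call was lost when WT replicate 1 (adjusted p = 0.151), WT replicate 2 (0.105), knockout replicate 2 (0.0854) or knockout replicate 3 (0.179) was left out of the edgeR fit. Its divergent neighbour ZNF345, which is read from the other strand and starts 426 bp inside ZNF790, had 20, 11 and 14 counts in WT and 25, 22 and 27 in the knockout. It was called higher (log2 fold change 0.65 ± 0.27, adjusted p = 0.0365, edgeR), a call that 9 of 14 alternatives did not keep.

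ZNF404 (chr19:43872363-43901385, minus strand), a KRAB zinc finger gene of run 5, had the largest change among protein-coding members. Its counts were 13, 9 and 5 in WT and 52, 69 and 50 in the knockout, and the log2 fold change was 2.58 ± 0.25 (adjusted p = 9.60e-15, edgeR). Every knockout library was far above every WT library. Neighbouring non-coding transcripts, AC006213.3 named by rule among the window's neighbours and AC006213.2 chosen after its values were seen, rose at the same place. AC006213.2, which shares exon bases with ZNF404 on the same strand, had 6, 4 and 1 counts in WT and 15, 13 and 16 in the knockout (log2 fold change 1.9 ± 0.43, adjusted p = 1.25e-04). AC006213.3, which starts beyond the 5′ end of ZNF404 on the other strand, had 1, 3 and 2 counts in WT and 16, 18 and 25 in the knockout (log2 fold change 3.15 ± 0.46, adjusted p = 9.57e-09). For ZNF404, 17.6% of exon bases are shared with another gene.

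ZNF221 and ZNF155 follow each other in the same run. ZNF221 (chr19:43951223-43967709) had 33, 20 and 31 counts in WT and 93, 69 and 79 in the knockout, a log2 fold change of 1.45 ± 0.18 (adjusted p = 3.32e-11, edgeR). ZNF155 (chr19:43967862-43998325) had 33, 25 and 33 counts in WT and 54, 67 and 43 in the knockout, a log2 fold change of 0.78 ± 0.19 (adjusted p = 3.53e-04, edgeR). Both are KRAB zinc finger genes on the plus strand, and in neither did the groups overlap. ZNF155 shares 41.4% of its exon bases with an antisense gene, AC006213.1, which was itself too low to be tested. ZNF283 (chr19:43827292-43852017), further towards the centromere, had 134, 137 and 120 counts in WT and 219, 222 and 260 in the knockout (log2 fold change 0.77 ± 0.094, adjusted p = 2.81e-11, edgeR), again without overlap.

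In run 2 the largest changes of coding members were in ZNF568, ZNF571, ZNF607 and ZNF585A. ZNF568 (chr19:36916329-36998700), whose mouse counterpart is known to silence a placental transcript of Igf2, had 71, 56 and 76 counts in WT and 160, 202 and 194 in the knockout. Its log2 fold change was 1.38 ± 0.12 (adjusted p = 7.52e-18, edgeR), and all knockout libraries lay well above the WT libraries. ZNF829, whose start lies 38 bp away on the opposite strand, was too low to be tested, with 0, 0 and 1 counts in WT and 8, 5 and 8 in the knockout. The ratio of these counts, 1 against 21, was 20.1 with an exact 95% interval of 3.24 to 833. Members of the divergent pair were thus both higher in each knockout library.

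ZNF571 (chr19:37554782-37594790) had 49, 31 and 37 counts in WT and 94, 99 and 97 in the knockout, a log2 fold change of 1.24 ± 0.15 (adjusted p = 4.21e-11, edgeR). ZNF607 (chr19:37696363-37719790) was the most abundant of the large risers, with 204, 215 and 182 counts in WT and 418, 449 and 420 in the knockout (log2 fold change 1.03 ± 0.075, adjusted p = 3.41e-21, edgeR). ZNF585A (chr19:37106734-37172741) had 82, 79 and 84 counts in WT and 171, 124 and 155 in the knockout (log2 fold change 0.81 ± 0.12, adjusted p = 1.14e-08, edgeR). These 3 genes encode proteins with 16, 18 and 21 fingers, and in none did the groups overlap. In run 1, ZNF792 (chr19:34956354-34964049), the start region of which is printed above, had 77, 72 and 82 counts in WT and 133, 130 and 151 in the knockout (log2 fold change 0.77 ± 0.12, adjusted p = 3.56e-08, edgeR), likewise without overlap.

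**Figure D2:**
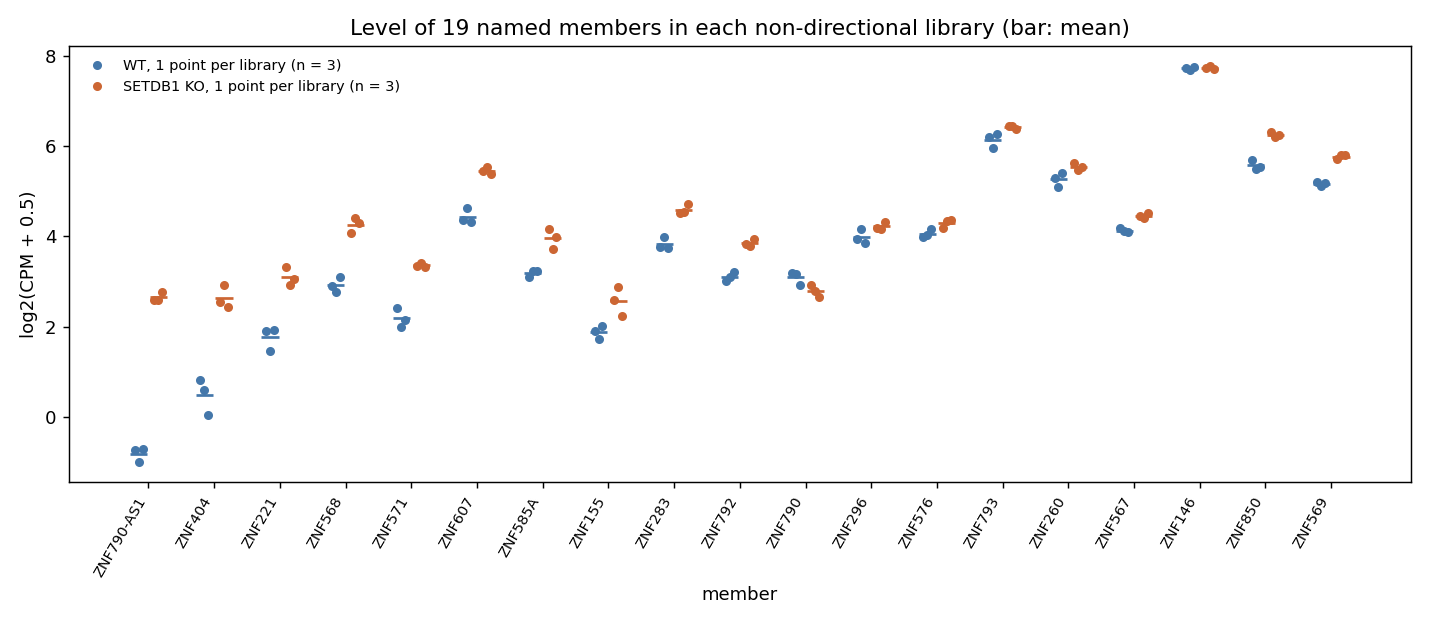
Level of 19 members chosen by rule in each non-directional library, as log2(CPM + 0.5) (y axis), with 1 point per library (n = 3 per genotype) and bars for means. The 10 members on the left, from ZNF790-AS1 to ZNF792, have all 3 knockout points above all 3 WT points, and ZNF146, the most abundant, has the points of both genotypes at the same height.

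The most abundant members behaved differently from each other. ZNF146 (chr19:36214602-36238774) encodes a short protein made almost wholly of fingers, with no KRAB box, and was read 2158, 1841 and 2020 times in WT and 2056, 2146 and 2127 times in the knockout. Its log2 fold change was 0.0049 ± 0.034 (adjusted p = 0.920, edgeR), and the groups overlapped. ZNF793 had 741, 552 and 717 counts in WT and 839, 854 and 836 in the knockout, a log2 fold change of 0.26 ± 0.051 (adjusted p = 6.92e-06, edgeR). ZNF850, the member with the most fingers, had 519, 399 and 428 counts in WT and 774, 713 and 764 in the knockout, a log2 fold change of 0.67 ± 0.054 (adjusted p = 7.96e-19, edgeR). ZNF569 had 373, 304 and 336 counts in WT and 504, 541 and 557 in the knockout (log2 fold change 0.59 ± 0.061, adjusted p = 5.37e-14, edgeR). Groups of the last 3 did not overlap. Per kilobase of exon, ZNF146 was again the highest member in WT, at 50.9 CPM per kilobase, followed by ZNF428 at 14.4 and ZNF30 at 9.17, while the median of tested members was 1.61.

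The smallest changes that passed the threshold, besides that of ZNF793, were those of ZNF296, ZNF576, ZNF260 and ZNF567. ZNF296 had 151, 154 and 130 counts in WT and 174, 171 and 196 in the knockout (log2 fold change 0.25 ± 0.097, adjusted p = 0.0274, edgeR). ZNF576 had 156, 141 and 163 counts against 174, 194 and 205 (log2 fold change 0.25 ± 0.093, adjusted p = 0.0205, edgeR). These calls were lost in 8 and 7 of 14 alternatives. ZNF260, a finger protein without a KRAB box, had 395, 301 and 393 counts against 475, 429 and 468 (log2 fold change 0.27 ± 0.065, adjusted p = 3.47e-04, edgeR). ZNF567 had 180, 150 and 155 counts against 208, 202 and 227 (log2 fold change 0.33 ± 0.089, adjusted p = 0.00132, edgeR), and both were kept in all 14 alternatives.

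Of the remaining members called higher, the log2 fold change in run 1 was 0.48 for ZNF302, 0.73 for ZNF599 and 0.69 for ZNF30. In run 2 it was 0.39 for ZNF529, 0.63 for ZNF420, which is known as Apak, a repressor of p53, 0.41 for ZNF527, 0.49 for ZNF570 and 0.61 for ZNF573. In run 3 it was 0.61 for ZNF780B and 0.52 for ZNF780A. In run 5 it was 0.37 for ZNF45, 0.52 for ZNF230, 0.74 for ZNF225, 0.43 for ZNF234 and 0.49 for ZNF180. Without WT replicate 2 the call of ZNF573 had an adjusted p of 0.0510, and without knockout replicate 3 that of ZNF527 had 0.0523 (both edgeR). By run, 4 of 5 tested members rose in run 1, 16 of 27 in run 2, 2 of 3 in run 3, neither in run 4 and 11 of 19 in run 5. Over all genes tested 25.5% rose.

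Members that passed no threshold had log2 fold changes from -0.18 to 0.66. In run 1 ZNF181 stood at 0.13. In run 2 the values were -0.07 for ZNF565, 0.0058 for ZNF566, 0.14 for ZNF529-AS1, -0.0051 for ZNF382, 0.09 for ZNF461, 0.11 for ZNF383, 0.66 for ZNF793-AS1, -0.07 for ZNF571-AS1 and 0.43 for ZNF540. ZNF546 of run 3 stood at -0.18, and ZNF574 and ZNF526 of run 4 at 0.03 and -0.05. In run 5 the values were 0.14 for ZNF428, 0.39 for ZNF222, 0.39 for ZNF284, -0.01 for ZNF224, known as a repressor of the aldolase A gene, 0.15 for ZNF226, 0.16 for ZNF227, 0.39 for ZNF235 and 0.37 for ZNF112. ZNF222, ZNF284, ZNF235 and ZNF112 had SE of 0.17 to 0.24. ZNF235 was called higher in 3 of 14 alternatives, ZNF112 in 2 and ZNF284 in 1, so that these values lay close to the threshold.

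The 11 members too low to be tested were ZNF829, ZNF585B, ZNF781, ZNF575, ZNF223, ZNF233, ZNF285, ZNF229, ZNF30-AS1 and the pseudogenes ZNF807 and ZNF285B. ZNF585B, next to ZNF585A, had 6, 6 and 4 counts in WT and 11, 15 and 10 in the knockout. ZNF781 had 1, 0 and 0 counts in WT and 4, 2 and 3 in the knockout, a ratio of 8.63 with an exact 95% interval of 1.20 to 378. In both, every knockout library was above every WT library. ZNF575 had 3 to 6 counts in all 6 libraries and ZNF233 had 1 to 7. ZNF285B had 1 to 6, while ZNF807, ZNF30-AS1, ZNF223, ZNF229 and ZNF285 had 3 or fewer in each library, and ZNF285 had 0 in all. A count of 0 allows up to 3 counts, which is 0.294 to 0.336 CPM in these libraries. Of ZNF223, 45.4% of exon bases lie under another annotated gene, where reads are counted as ambiguous.

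Shared exon bases concerned many members. Of the 67, 42 share exon bases with another gene, 29 of them on the opposite strand. In the non-directional kit, reads within shared bases cannot be told apart by strand and are counted as ambiguous. Among the 21 tested members with no shared exon base 15 rose, with a median log2 fold change of 0.48. Among the 35 with shared bases 18 rose and 1 fell, with a median of 0.39. The share of all genes tested was 25.5% higher and 25.9% lower. Paralogous members such as ZNF585A and ZNF585B, or ZNF780A and ZNF780B, are similar in sequence, so the split of reads between them is uncertain.

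Across tested members the fold change was only loosely related to features of the genes. Spearman's rho with the number of fingers was 0.33 (n = 52), with the number of CG before the start -0.28 (n = 45), with the WT level -0.20 (n = 56) and with exon length -0.01 (n = 56). These are descriptions across genes of the same 6 libraries. Members called higher had a median of 15 fingers and 16.5 CG, and members not called a median of 12 fingers and 19 CG. The median WT level was 13.8 CPM in those called higher and 5.69 CPM in those not called. These groups thus also differed in level, on which a call depends. Of the 25 tested members with the narrow KRAB pattern 17 rose and 1 fell (median log2 fold change 0.52), and of the 27 translated members without it 15 rose (median 0.37). On the minus strand 16 of 24 tested members rose and on the plus strand 17 of 32, where 25.5% of all genes tested rose.

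The other genes of the window as a whole had a smaller median change than the members. Those within runs 1 and 2 did not, but those of run 2 include zinc finger genes under other symbols. Of 572 other genes that start in the same window, 180 were tested, with a median log2 fold change of 0.07. Among these 59 rose and 23 fell (32.8% and 12.8%, against 25.5% and 25.9% of all genes tested). The highest called neighbours were the pseudogene CEACAM22P (0, 1 and 1 counts in WT, 72, 61 and 71 in the knockout), FBXO17, an F-box gene (6, 6 and 1 against 209, 210 and 234), and AC006213.3 beside ZNF404. The lowest were RINL (log2 fold change -1.47 ± 0.14), PRR19 (-0.91 ± 0.38) and APLP1 (-0.64 ± 0.11). Genes of the same family under other symbols were ZFP30, which rose (317, 231 and 319 counts in WT, 479, 466 and 491 in the knockout, log2 fold change 0.66 ± 0.068, adjusted p = 5.37e-14, edgeR), ZFP14, which was not called (0.22 ± 0.14, adjusted p = 0.174), and ZFP82, with 0 counts in all 6 libraries. HKR1, a KRAB zinc finger gene of run 2 chosen after its values were seen, stood at 0.54 ± 0.045 (adjusted p = 4.99e-18, edgeR). Between the first and last member of run 1, 3 of 5 tested other genes rose, with a median log2 fold change of 1.07 against 0.69 for the members of that run. In run 2, 5 of 9 rose (median 0.54 against 0.41 for members), and in run 5, 7 of 21 rose and 2 fell (0.12 against 0.39). The 9 of run 2 include ZFP30, ZFP14 and HKR1, so their median is not that of genes outside the family. Runs 3 and 4 each held 1 tested other gene, at 0.77 and -0.0098, neither of them called.

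Other zinc finger genes of the ZNF symbol were set beside the members in the same fit, with no test of the difference. In 19p12 (19 to 25 Mb) 38 of 39 tested genes rose, with a median log2 fold change of 0.97. In 19q13.4 (from 52 Mb) 53 of 91 rose and 2 fell, with a median of 0.29, and outside chromosome 19, 79 of 242 rose and 35 fell, with a median of 0.06. Over all genes tested 25.5% rose and 25.9% fell. The members, at 0.40, thus lay between the 19p12 and 19q13.4 groups in the median. ZNF genes in other parts of chromosome 19 belong to none of these groups and were not set beside them.

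**Figure D3:**
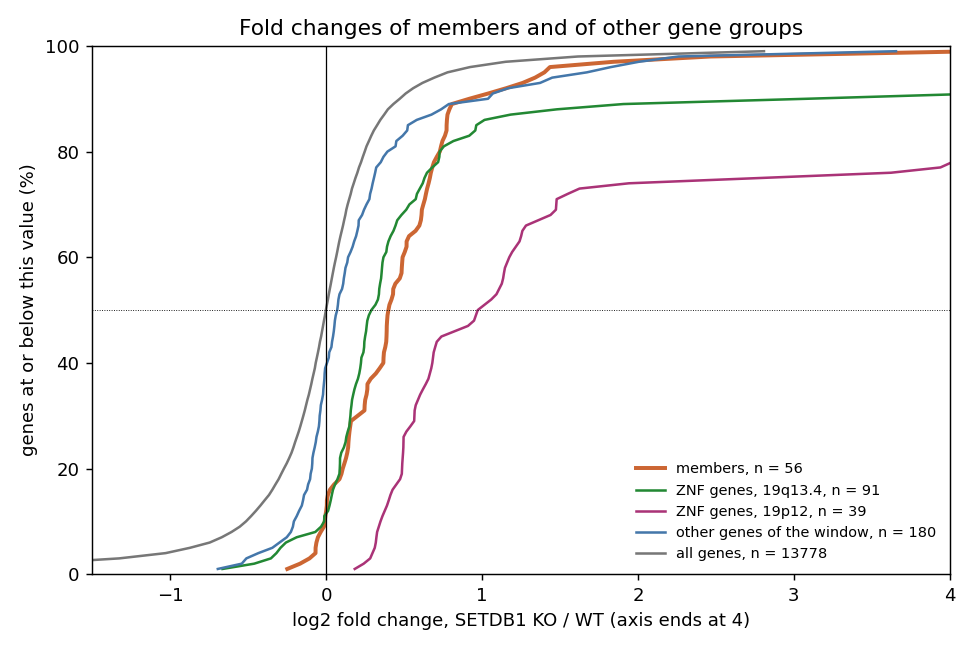
Cumulative share of tested genes (y axis, %) at or below a given log2 fold change of knockout over WT (x axis, cut at 4), for the 56 members, the 180 other genes of the window, ZNF genes of 19p12 (39) and 19q13.4 (91) and all 13778 genes. At 50% the curves cross at 0.40 for the members, 0.07 for the window, 0.97 for 19p12, 0.29 for 19q13.4 and -0.0012 for all genes.

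The machinery that acts on zinc finger genes was also measured, as a list of 23 genes that were all tested. Of these 9 rose and 7 fell (39.1% and 30.4%, against 25.5% and 25.9% of all genes tested). ATF7IP, the partner that stabilises SETDB1 in the nucleus, rose most, from 586, 502 and 543 counts in WT to 1675, 1780 and 1800 in the knockout (log2 fold change 1.62 ± 0.044, adjusted p = 3.69e-49, edgeR). The others that rose were DNMT3B (log2 fold change 0.43), SETDB2 (0.32), FAM208A (0.30), MORC2 (0.27), ZNF274 (0.21), PPHLN1 (0.18), ATRX (0.17) and CBX1 (0.13). Besides SETDB1, those that fell were SUV39H1, another H3 lysine 9 methyltransferase (log2 fold change -0.74 ± 0.059), CBX5 (-0.25), DNMT1 (-0.23), UHRF1 (-0.19), TRIM28 (-0.11) and CBX3 (-0.09). TRIM28, ZNF274 and ATRX, which act on the ends of zinc finger genes, thus changed by 0.21 or less on the log2 scale.

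Long L1 elements (LINE-1 retrotransposons) were read per locus in the non-directional libraries, and 14 of 6437 loci lie in the window. The values were whole multiples of a unit in each library, so reads were recovered, and 4 of the 14 loci had enough reads for a test. An L1PA4 element inside ZNF780B (chr19:40037916-40044054), in no exon of its coding transcripts, had 22, 20 and 31 reads in WT and 56, 73 and 59 in the knockout. Its log2 fold change was 1.29 ± 0.23 (adjusted p = 3.68e-05, edgeR on recovered reads), where 30% of the 816 loci tested rose. ZNF780B itself had 143, 130 and 153 counts in WT and 214, 239 and 231 in the knockout, a log2 fold change of 0.61 ± 0.091 (adjusted p = 1.61e-08, edgeR). Both readouts were higher in every knockout library than in any WT library. The elements inside ZNF567 (L1PA3, log2 fold change 0.07 ± 0.31) and inside ZNF420 and ZNF585A (L1PA4, 0.10 ± 0.38) were not called (adjusted p 0.897 and 0.889, edgeR), and neither was the L1PA4 element in AC008555.5 of run 1 (0.30 ± 0.17, adjusted p 0.191, edgeR). The element inside ZNF567 overlaps an exon of a coding transcript, so its reads may include those of that exon.

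The directional libraries hold little of these genes. They placed 5.23% to 5.30% of their listed reads in genes and 94.6% in no gene. In them a count of 0 allows up to 3 counts, which is 4.43 to 5.64 CPM. Over 1011 genes with a single partner on the opposite strand, fold changes of the directional kit were closer to those measured for the partner in the other kit (rho 0.55) than to those of the same gene (rho 0.21), so directional counts cannot be read as sense transcripts of the named gene. In this kit 12 members were tested, and the counts listed under 3 were called higher, where 7.67% of all 4745 genes were. The directional counts listed under members summed to 727, 720 and 722 CPM in WT and 1235, 1256 and 1214 CPM in the knockout. Without ZNF224 the sum was 552, 563 and 554 CPM against 742, 740 and 714 CPM. The knockout sum was higher in each library with or without that gene. For the reason given above, these sums are not a second measure of the members' own transcripts.

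ZNF224 (chr19:44094339-44109886) had 107, 106 and 89 directional counts in WT and 309, 295 and 274 in the knockout, a log2 fold change of 1.60 ± 0.094 (adjusted p = 4.66e-27, edgeR). In the non-directional kit the same gene had 45, 36 and 45 counts in WT and 44, 37 and 50 in the knockout. The groups were far apart in the directional kit and overlapped in the other. AC021092.1, an antisense gene that covers part of ZNF224 and was chosen after its values were seen, had 21, 7 and 5 non-directional counts in WT and 41, 41 and 42 in the knockout (log2 fold change 1.83 ± 0.27, adjusted p = 1.16e-08, edgeR). With 7 and 5 counts in WT replicates 2 and 3, it could pass the filter through the knockout. ZNF45 (chr19:43912629-43935278), which shares no exon base with another gene, had 2, 1 and 4 directional counts in WT and 23, 20 and 20 in the knockout (log2 fold change 3.16 ± 0.44, adjusted p = 1.09e-08, edgeR), and in the non-directional kit 273, 263 and 249 against 335, 337 and 390. In every WT library ZNF45 had fewer than 10 directional counts, so it passed that kit's filter through the knockout libraries. Its p-value in that kit is therefore no separate support for a rise. The antisense gene AC006213.3 (chr19:43902001-43926545) reaches into ZNF45 on the other strand. It rose in the non-directional kit (log2 fold change 3.15 ± 0.46, adjusted p = 9.57e-09, edgeR), where it too passed the filter through the knockout. ZNF529-AS1, with fewer than 10 directional counts in WT replicates 1 and 3, could also pass in this way. ZNF529-AS1 had 8, 13 and 6 directional counts in WT and 22, 13 and 19 in the knockout (log2 fold change 1.05 ± 0.33, adjusted p = 0.0186, edgeR), with a shared value of 13 between the groups, and its call was lost without WT replicate 1, WT replicate 3, knockout replicate 1 or knockout replicate 3 (adjusted p 0.0784, 0.0909, 0.108 and 0.0701, edgeR). The other 9 members tested in this kit were not called, and ZNF575 came nearest, with 68, 70 and 59 counts in WT and 83, 86 and 72 in the knockout (log2 fold change 0.35 ± 0.14, adjusted p = 0.0772, edgeR). Between the kits the knockout effect differed for ZNF790-AS1, ZNF790, ZNF45 and ZNF224, where 1.82% of all 15832 genes passed the genotype by kit term of edgeR.

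**Figure D4:**
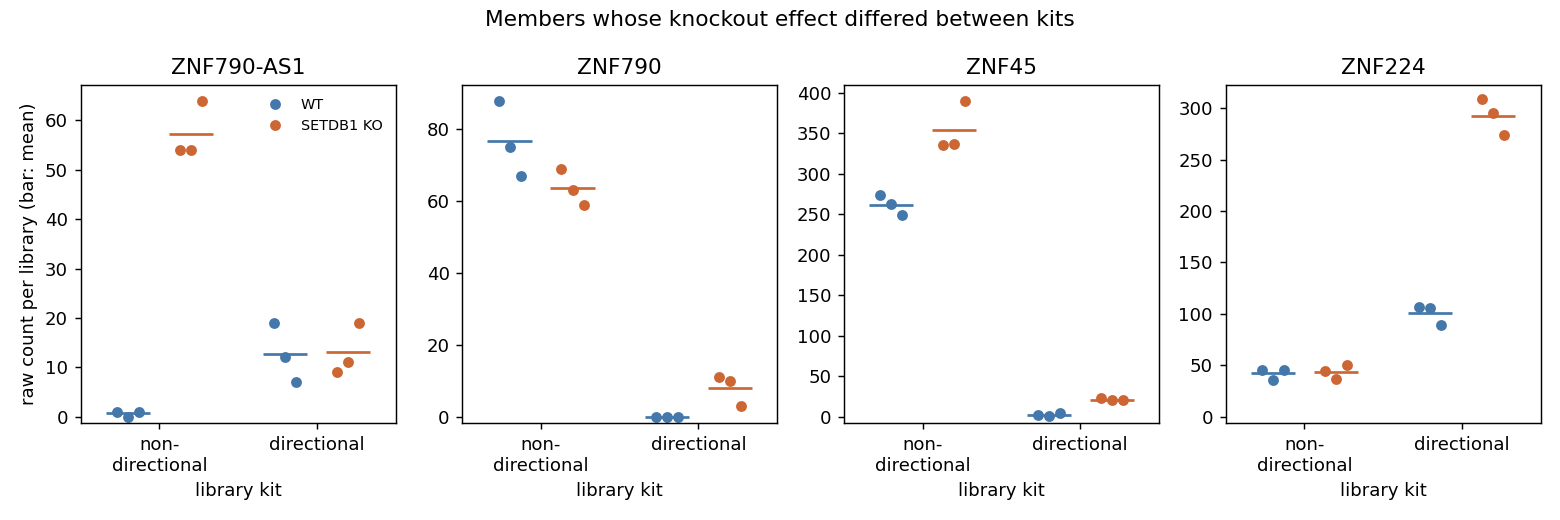
Raw counts per library (y axis, each panel with its own scale) of ZNF790-AS1, ZNF790, ZNF45 and ZNF224 in the non-directional and directional kits (x axis), with 1 point per library (n = 3 per genotype and kit) and bars for means. ZNF790-AS1 separates by genotype in the non-directional kit alone, ZNF224 in the directional kit alone, and ZNF790 has 0 directional counts in each WT library.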

How the data were processed

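The labels and the units of the files set the choice of tests. The authors deposited raw counts per gene for each of the 12 libraries, closed by lines for reads outside genes or in several genes. For the non-directional libraries they also deposited a normalised signal per L1 locus. Submitters' processing notes name hg38, Trim Galore 0.4.4, STAR 2.6.0a, SAMtools 1.9, Picard 2.23.8, HTSeq 0.11.1, bedtools and DESeq2 3.14, without role or order. The strand setting of the counting is not given in the sources used here. Samples were grouped by the genotype, kit and replicate number in the titles.

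All 58735 gene IDs matched GENCODE 29 (GRCh38), which gave symbols, positions, exon overlaps and, in place of a protein table, coding sequences that were translated. Closing lines were left out of library sizes. Each kit was fitted alone with edgeR 4.0.16 in R 4.3.3, after filterByExpr (minimum count 10, minimum total 15) and TMM scaling, with the quasi-likelihood F-test, Benjamini-Hochberg adjustment over all genes tested and a threshold of 0.05. Standard errors were derived from the fold change and its F statistic and are approximate. The genotype by kit term was fitted over all 12 libraries. L1 signals were whole multiples of a unit in 100% of values (tolerance 0.001), and the edgeR test on those recovered reads was chosen after seeing the data. L1 positions are printed as deposited, and their counting base (0 or 1) is unknown. RefSeq start regions were taken for the start nearest to the GENCODE gene start, a choice made after seeing the data. The edgeR script was tested on simulated data. Floors of 3 counts and intervals cover counting error only, since reads without molecular identifiers are not independent molecules.

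Members named with full counts were the 10 highest and 6 lowest log2 fold changes among those called, and the 4 with the highest mean CPM. From the other lists the called genes of the machinery, the family genes under ZFP symbols, and the 3 highest and 3 lowest called neighbours were named. The members, lists and tests were chosen with earlier results of these data known. Alternatives were DESeq2 1.42.0, other scalings, no filter, a fold limit, all 12 libraries in 1 fit, a replicate block, the knockout libraries summed as 1 and leaving out each library.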

Additional observations from a re-analysis of the deposited data

Results flagged for a closer look

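For 4 members the knockout effect differed between the library kits, by the genotype by kit term of an edgeR fit over all 12 libraries (1.82% of 15832 genes tested passed this term). ZNF790-AS1 rose in the non-directional kit, with 1, 0 and 1 counts in WT and 54, 54 and 64 in the knockout, and had 19, 12 and 7 against 9, 11 and 19 counts in the directional kit (adjusted p = 3.54e-15). ZNF790 had 88, 75 and 67 non-directional counts in WT against 69, 63 and 59 in the knockout, and 0, 0 and 0 against 11, 10 and 3 directional counts, at least 8.35-fold higher by a floor of 3 counts over the group (adjusted p = 6.26e-07). ZNF45 differed by 2.93 ± 0.48 on the log2 scale, with the larger change in the directional kit (adjusted p = 2.39e-07). ZNF224 differed by 1.68 ± 0.22, again with the larger change in the directional kit (adjusted p = 1.86e-11).

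Of these 4 genes, ZNF790-AS1 and ZNF790 share few exon bases with each other on opposite strands (3.98% and 1.56% of their exon bases). ZNF224 shares 40.5% of its exon bases with AC021092.1. ZNF45 shares no exon base, but AC006213.3 reaches into it on the opposite strand. The part of these overlaps in the difference between kits was not tested.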

How the results depend on the processing

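Of the 33 members called higher, 28 kept the call in all 14 alternatives and 5 lost it in at least 1 (ZNF345, ZNF527, ZNF573, ZNF576 and ZNF296), and none changed sign. The number called higher was 30 to 34 under these alternatives (32 to 33 without single libraries) and 6 with a fold limit (log2 of 1 or more in size). The number called lower, 1 for ZNF790, was 0 with that fold limit, with DESeq2 (also 0 at an unadjusted p under 0.05), with no filter (1 unadjusted) and with the knockout libraries summed (1 unadjusted), and 0 to 1 without single libraries. The members' median log2 fold change was 0.31 with TMM on the other genes of the window, which moved the median of all genes to -0.09 and that of the window's other genes to -0.022. It was 0.48 with no filter and 0.35 to 0.51 without single libraries. ZNF790 gave log2 fold changes of -0.43 to -0.26 and adjusted p of 0.0108 to 0.181 over its alternatives. Of 285 alternative values of the 19 named members 251 kept their side of the threshold, 12 lost it by the fold limit, 22 lost it otherwise, all of these in ZNF790, ZNF296 and ZNF576, and none reversed. In the directional kit the counts listed under 2 to 4 members were called higher, and ZNF529-AS1 lost its call with DESeq2 (adjusted p = 0.190) and with no filter (0.0584). The cause of these changes was not tested. Same-numbered libraries did not vary together (correlations -0.025 to -0.0012 in the non-directional kit). Since the knockout libraries differed by no more than sampling noise, these correlations cannot show whether the numbers pair samples. The replicate block gave 34 members called higher, 1 lower and a median of 0.40, 3 called higher in the directional kit, and a log2 ratio of 0.36 for summed members. The filter left out 11 members with low counts. With no filter 66 members were tested, of which 33 were called higher.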

Other observations

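Some neighbours of the members rose strongly, and were chosen after their values were seen. LINC00665, a long non-coding RNA of run 2, had 53, 69 and 62 counts in WT and 269, 283 and 259 in the knockout (log2 fold change 2.07 ± 0.11, adjusted p = 3.40e-29, edgeR). APOE, the apolipoprotein gene in the telomeric part of run 5, had 295, 256 and 231 counts in WT and 1457, 1503 and 1513 in the knockout (log2 fold change 2.45 ± 0.053, adjusted p = 5.01e-56, edgeR). APOC1 beside it had 40, 45 and 36 against 107, 113 and 118 counts (log2 fold change 1.41 ± 0.15, adjusted p = 5.42e-14, edgeR). No library of either genotype overlapped with the other in these genes. In run 1 the lincRNAs LINC01801 (log2 fold change 1.07 ± 0.19), AC008555.1 (1.15 ± 0.18) and AC008555.2 (1.18 ± 0.35) lay between ZNF599 and ZNF30 and rose more than any tested member of that run.

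An L1PA2 element telomeric of ZNF573 (chr19:37837503-37843533) had 1, 1 and 4 reads in WT and 19, 8 and 10 in the knockout and was too low to be tested.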
